A study of Mus musculus with 2 samples.

Results

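The 367 accessible sites described here begin between 79 and 82 Mb of mouse chromosome 10 (genome build mm9) and come from a list of 53593 DNaseI sites. They were taken by position alone, as every site of the list whose start lay in these 3 Mb. They made up 0.685% of the list (exact binomial 95% interval 0.617 to 0.758%) and 12.9% of the 2837 sites of chromosome 10 (11.7 to 14.2%). The stretch was chosen by its number of sites per Mb, because it holds the fullest 1-Mb window on a grid of whole megabases, so its density is given below as a description and was not tested. The 5 Mb before it (74 to 79 Mb, 222 sites) and the 5 Mb after it (82 to 87 Mb, 115 sites) serve for comparison.

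The material was a single untreated lymphoma, T6, from a C57/Bl6 mouse with the Eμ-myc transgene and the genotype Arf-/- Trp53+/+. In Eμ-myc mice the immunoglobulin heavy chain enhancer drives the Myc oncogene in B cells, Arf (a protein of the Cdkn2a locus that restrains Mdm2) is missing in this tumour, and the p53 gene is intact. The labels call the cells B cells from lymph nodes. They were strained from the nodes without purification, so DNA of other node cells may be included, and markers of cell types could not be checked because no mm9 annotation was used here. The series has 2 libraries, of which the DNaseI library has a list of sites, and the input library was not analysed here. The list gives positions only, with no read count or score, so the depth behind a site is unknown. With 1 library there is no replicate and no p-value. All intervals are 95% intervals for counting error alone, and neighbouring sites are not independent of each other.

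DNaseI cuts DNA where nucleosomes are missing or displaced, which is typical of active promoters, of enhancers and of sites bound by insulator proteins. Such sites are unevenly spread: they gather where genes, above all broadly expressed ones, stand close together, and are rare in gene-poor or silent DNA. The width of a called site reflects the length of open DNA, and also depth and the settings of the caller.

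Which genes lie under the sites was not analysed here. As background, 59 genes in 6 lists were set down from general knowledge of this part of chromosome 10, and a RefSeq gene table of another build (GRCm38.p6) was used for gene order only. All 59 were found on chromosome 10 of that table. They fell in a run of 111 consecutive protein-coding genes, from Gzmm (a protease of killer lymphocytes) to Gna11 (a G protein subunit), out of 1001 on the chromosome. This run holds Tcf3, which encodes E proteins that B cell development needs, between Uqcr11 (a subunit of respiratory complex III) and Onecut3 (a homeobox factor). It also holds 14 listed genes of growth, translation and mitochondria, among them Eef2 (translation elongation) and Polr2e (an RNA polymerase subunit). Listed too are 12 of chromatin and transcription, such as Dot1l (a histone methyltransferase) and Mbd3 (of the NuRD complex). A shorter list has 4 of myeloid granules, such as Elane (neutrophil elastase). The other lists have 13 genes of other tissues, 10 lymphoid and B lineage genes and 9 of signalling kinases and G proteins. Some genes are in several lists. No coordinate of that table was set against a site, so no site below is assigned to a gene.

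Resolved in steps of 50 kb, the 3 Mb consisted of a dense block and a sparse remainder. The 2 change points of highest Poisson likelihood in the counts from 74 to 87 Mb fell at 79.1 and 81.1 Mb. The 2 Mb between them, called the dense block here, held 348 sites, or 174 per Mb (156 to 193). These are 94.8% of the sites of the stretch. Every one of the 40 steps of the block held sites, with a lowest count of 3, a median of 8.5 and a highest of 15. In the flanks, 82 of 200 steps (41%) were empty, the median was 1 and the highest count was 8. The block had 5.38 times the sites per Mb of the remaining 11 Mb, a description only, since the edges were placed where these same counts change most. The whole stretch, with 122 sites per Mb, had 3.63 times the density of both flanks, 2.76 times that of the left flank and 5.32 times that of the right. Sites covered 16.0% of the bases of the block and 2.67% of those of the flanks.

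**Figure D1:**
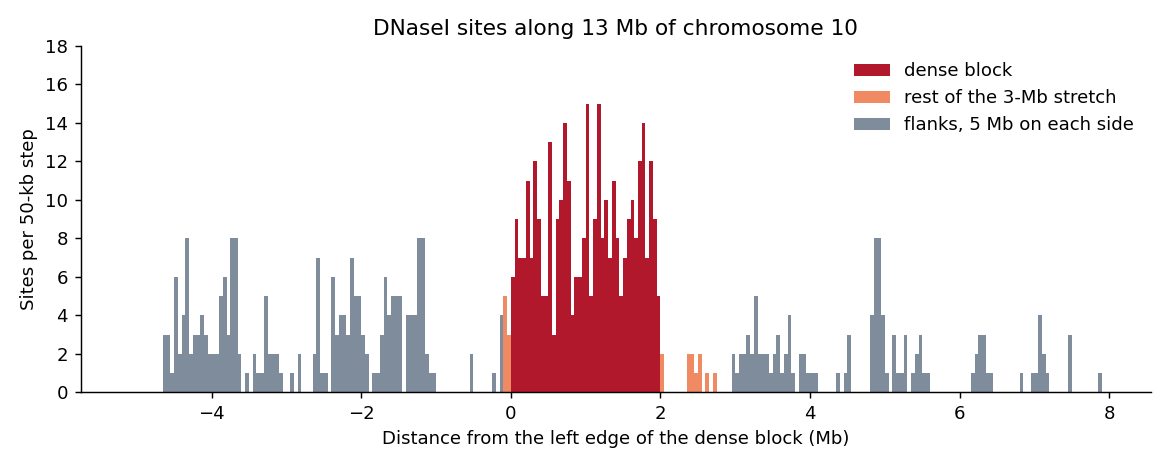
Number of DNaseI sites (vertical axis) that start in each 50-kb step over 13 Mb of chromosome 10, against the distance in Mb from the left edge of the dense block. The 40 steps of the block (dark red) hold 3 to 15 sites each, and no step of the flanks (grey) holds more than 8.

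The left edge had a shoulder. The last Mb before the stretch (78 to 79 Mb) was nearly empty, with 9 sites, and held gaps of 505 kb (78054597 to 78559690) and 300.2 kb (78579381 to 78879539). The counts then went from 0 in the step at 78.9 Mb to 4, 5 and 3 in the next 3 steps, which the fit left outside the block, and to 6 and 9 in the first steps inside it. The first site of the block was 304 bp wide (79112301 to 79112604) and lay 35.1 kb after the site before it. The 500 kb inside the left edge held 78 sites and the 500 kb outside it 13.

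The limits of the 3 Mb cut through the shoulder on the left and through DNA without a listed site on the right. The site just outside the left limit (78995592 to 78996892) and the one just inside (79001338 to 79001712) were 4.45 kb apart. The last site inside (81816684 to 81817611) and the first outside on the right (82084930 to 82086579) were 267 kb apart.

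The right edge was sharper. The last 4 steps of the block held 7, 12, 9 and 5 sites, the step after it held 2, and the following 6 held none. The last site before this emptiness was 1057 bp wide (81111334 to 81112390), and the next lay 348 kb away (81459902). The 500 kb inside the right edge held 93 sites and the 500 kb outside it 7. This difference of 86 sites was the largest at any of 52329 step boundaries of the autosomes and the X chromosome. The next after it on other chromosomes were 82 sites at 19.55 Mb of chromosome 7 (6 before, 88 after) and 81 sites at 153.65 Mb of chromosome 3 (84 before, 3 after). At the left edge the difference was 65 sites, and 34 boundaries in the genome had a larger one, those around the right edge among them. These ranks are a description, since a stretch chosen for its density has many sites to lose at an edge. Whether sites could be called in the DNA without sites was not tested, and no unmappable or unassembled DNA was left out of the ranking.

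Whether the stretch is the densest of the list depended on how windows were laid. On the fixed grid, 80 to 81 Mb ranked first with 186 sites and 79 to 80 Mb ranked 4 with 156, while 81 to 82 Mb held 25. With 1-Mb windows moved in steps of 50 kb, the fullest lay on chromosome 3 (87.5 to 88.5 Mb, 194 sites), and the best window of the block (80.05 to 81.05 Mb) held 189, within counting error of it. With 2-Mb windows the block itself came first with 348 sites, followed by 87.7 to 89.7 Mb of chromosome 3 with 323. With a minimum of 2 or 3 sites a step, the length of an unbroken run ranked first, and this run took in the block and the shoulder before it. From 78.95 to 81.1 Mb, 43 steps in a row held at least 3 sites each, 360 sites in all. The next longest such run was 24 steps on chromosome 19 (5.4 to 6.6 Mb, 140 sites). With at least 2 sites a step the run from 78.95 to 81.15 Mb also ranked first (44 steps, against 35 on chromosome 2). Higher minimums broke the block. With at least 4 it gave runs of 28 and 11 steps, and that of 28 (79.7 to 81.1 Mb) ranked first, against 22 on chromosome 3. With at least 5 it gave runs of 23, 11 and 4 steps, and that of 23 (79.95 to 81.1 Mb) ranked first, against 13 on chromosome 3. With at least 1 site a step the run from 78.95 to 81.15 Mb ranked 7 with 44 steps, and the longest run was 94 steps on chromosome 4 (131.2 to 135.9 Mb, 499 sites). These minimums were chosen after the values had been seen.

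Within the block the counts of 50-kb steps varied little more than independent placement gives. This is a description, because the edges were fitted to these same counts and the fit favours a segment of even counts. The other windows below were placed by their number of sites alone. Counts per 50 kb do not describe the spacing within a step. The variance of the 40 step counts was 1.10 times their mean, and independent placement at one rate gives a ratio near 1. The ratio was 2.54 in the pooled flanks, 2.51 in the left flank and 2.15 in the right. In 500-kb parts of the block, with 10 steps each, it ran from 0.735 to 1.62. No interval was computed for these ratios. Among the 8 densest 2-Mb windows of the genome that do not overlap, the other 7 had ratios from 1.63 (chromosome 2, 165.8 to 167.8 Mb) to 2.997 (chromosome 11, 116.15 to 118.15 Mb). The longest stretch without a site was 38.4 kb in the block and 57.8 to 115 kb in those 7. Of the 200 steps of 10 kb in the block, 34 (17%) were empty, against 28.5 to 38.5% in the other 7 windows. The block also had the most sites of the 8, which by itself shortens gaps and leaves fewer steps empty. Over 1 Mb, the fullest windows of chromosome 3 differed in evenness, and by the ratio one of them was as even as those of the block. The ratio was 1.096 at 88.95 to 89.95 Mb of chromosome 3, and 0.919 and 1.34 in the block's windows at 80.05 and 79.05 Mb. It was higher at 87.5 to 88.5 Mb (1.67) and at 95.45 to 96.45 Mb (3.002) of chromosome 3. The window at 87.5 to 88.5 Mb of chromosome 3 had 18% of its 10-kb steps empty and a longest gap of 35.1 kb, against 18% and 38.4 kb at 80.05 Mb of chromosome 10. These values were 23% and 50.9 kb at 88.95 Mb of chromosome 3, and 25% and 52.7 kb at 95.45 Mb.

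**Figure D2:**
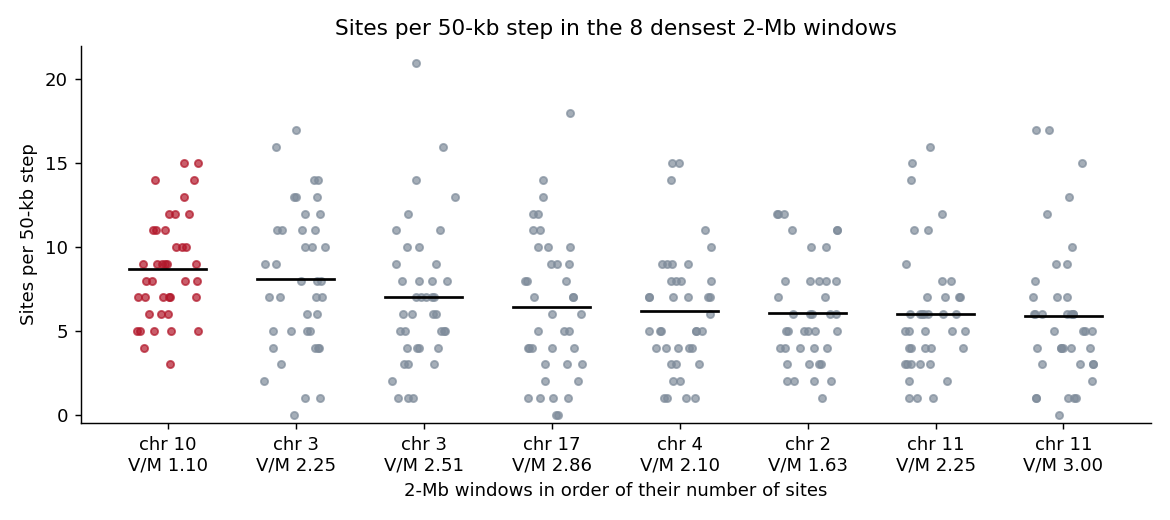
Sites per 50-kb step (points, 40 steps each) in the 8 densest 2-Mb windows of the autosomes and X, with the mean as a bar and V/M, the variance divided by the mean, under each chromosome name. The dense block of chromosome 10 (dark red) has a V/M of 1.10, and the other windows (grey) have 1.63 to 2.997.

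The 4 parts of the block of 500 kb each held 78, 84, 93 and 93 sites from left to right. The fullest steps were those at 80.1 and 80.25 Mb with 15 sites each, at 79.8 and 80.85 Mb with 14 each, and at 79.6 Mb with 13. They were filled in different ways. The step at 79.6 Mb had 4 wide sites (over 1500 bp) and 35.0% of its bases covered, the highest of the block. The step at 79.8 Mb had 9 narrow sites (under 400 bp), none that was wide, and 13.3% covered. The steps at 80.1 and 80.25 Mb had 5 narrow sites each and 28.1 and 22.9% covered. The emptiest step of the block followed directly on the one with the highest coverage, at 79.65 Mb, with 3 sites and 4.11% covered.

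Sites of the stretch were somewhat wider than those of the list. Their median width was 745 bp (interval from order statistics 693 to 815), against 663 bp (658 to 668) for all 53593 sites and 672 bp (618 to 727) for the flanks. Wide sites of over 1500 bp numbered 58, or 15.8% (12.2 to 19.9%), against 11.4% of the list (11.1 to 11.7%) and 11.0% of the flanks (7.85 to 14.8%). Narrow sites of under 400 bp numbered 98, or 26.7% (22.2 to 31.5%), against 30.5% of the list and 30.3% of the flanks. The interval for wide sites lies above the list and overlaps that of the flanks. The intervals for narrow sites overlap in both comparisons. Wide sites gave 37.2% of the covered bases of the stretch and 28.6% of those of the list. The narrowest width in the list, 249 bp, was that of 10 sites of the stretch (2.72%) and of 2.41% of the list.

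**Figure D3:**
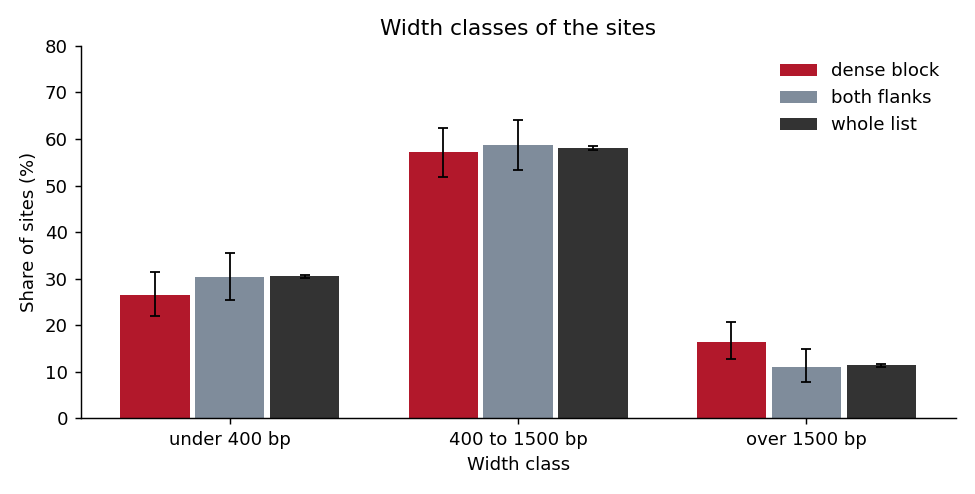
Share of sites (%) in 3 width classes for the dense block (348 sites), both flanks (337) and the whole list (53593), with exact binomial 95% intervals as error bars. Sites over 1500 bp are 16.4% of the block, 11.0% of the flanks and 11.4% of the list.

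Crowded DNA elsewhere also had more wide sites. Outside the block, wide sites were 11.0% in 50-kb steps with 1 to 2 sites, 10.6% with 3 to 5, 11.9% with 6 to 9 (11.43 to 12.48%) and 13.3% with 10 or more (12.4 to 14.2%). In the block they were 15.8% in steps with 6 to 9 sites (10.3 to 22.7%) and 16.5% in those with 10 or more (11.2 to 22.9%). Both intervals overlap those of outside steps in the same class of counts. The 7 steps of the block with 3 to 5 sites, only 32 sites in all, differed in median width and in narrow sites. Their sites had a median width of 990 bp (775 to 1229) against 655 bp (647 to 663) in outside steps with 3 to 5 sites. Narrow sites were 6.25% (0.766 to 20.8%) against 30.7% (30.0 to 31.3%). The outside class held 20533 sites in 5450 steps, so its steps were less full on average. Wide sites were 18.8% in these 7 steps of the block (7.21 to 36.4%), an interval that overlaps that of the outside class (10.2 to 11.1%). Of the 346 grid windows of 1 Mb with 50 or more sites, the median share of wide sites was 12.1%. The windows at 79 and at 80 Mb both had 16.7% and shared rank 56. Among the 8 densest 2-Mb windows, the share ran from 9.32% on chromosome 11 to 20.6% on chromosome 17, with the block at 16.4%. Inside the block, the 10 steps with at most 6 sites had narrow sites at 12.0% (4.53 to 24.3%), and the 14 steps with 10 or more sites at 29.4% (22.7 to 36.9%). These intervals overlap, and the limits of 6 and 10 sites were chosen after the values had been seen.

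**Figure D4:**
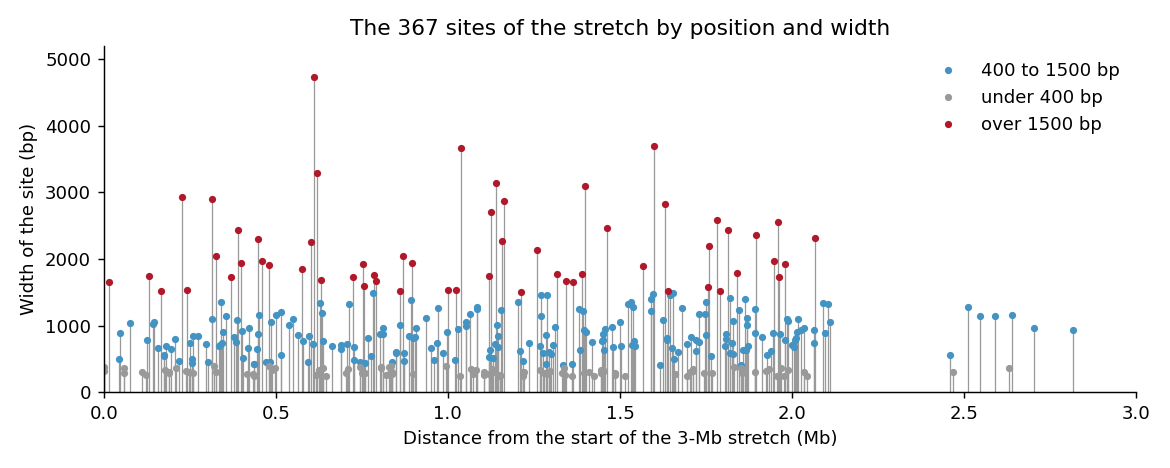
Width in bp (vertical axis) of each of the 367 sites against its distance in Mb from the start of the 3-Mb stretch, coloured by width class. Wide sites (dark red) occur along the whole block, and the 11 sites to the right of it are all 1328 bp or narrower.

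The widest site of the stretch spanned 4734 bp (79610349 to 79615082). A site of 3298 bp (79620840 to 79624137) followed it in the same step. Those next to the widest in size, of 3695 bp (80597847 to 80601541) and 3672 bp (80038646 to 80042317), lay in other steps of the block. Next came sites of 3141 bp (80139005 to 80142145) and 3097 bp (80397938 to 80401034). The site of 3141 bp had neighbours 184 bp before and 95 bp after it, so that 3 called sites lay almost end to end. The list of 10 ends with sites of 2934 bp (79228776 to 79231709), 2908 bp (79315833 to 79318740), 2871 bp (80163217 to 80166087) and 2822 bp (80629795 to 80632616). The site of 2871 bp stood at the rim of the longest gap of the block, 38.4 kb without a site (80166088 to 80204472). All 10 were inside the block. Its 57 wide sites recurred at a median distance of 22.5 kb from the end of one to the start of the next, 114.6 kb at most, and 12 of the 40 steps had none.

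Long gaps were rarer in the block than in the flanks, and gaps of 1 to 5 kb were more frequent. The median gap from the end of a site to the start of the next was 3.02 kb in the block (2.14 to 3.56) and 3.24 kb in the whole stretch (2.43 to 3.70). It was 9.62 kb in the flanks (7.41 to 12.9) and 7.05 kb in the list. Gaps of 10 kb or more were 15.0% of those in the block (11.4 to 19.2%) and 49.3% in the flanks (43.8 to 54.7%). Gaps of 1 to 5 kb were 36.9% (31.8 to 42.2%) and 18.5% (14.5 to 23.1%). The shortest gaps differed less: those under 500 bp were 21.04% in the block (16.9 to 25.7%), 16.1% in the flanks (12.3 to 20.5%) and 17.0% in the list. Spacing follows from density, by which the stretch was chosen, and is given as a description.

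**Figure D5:**
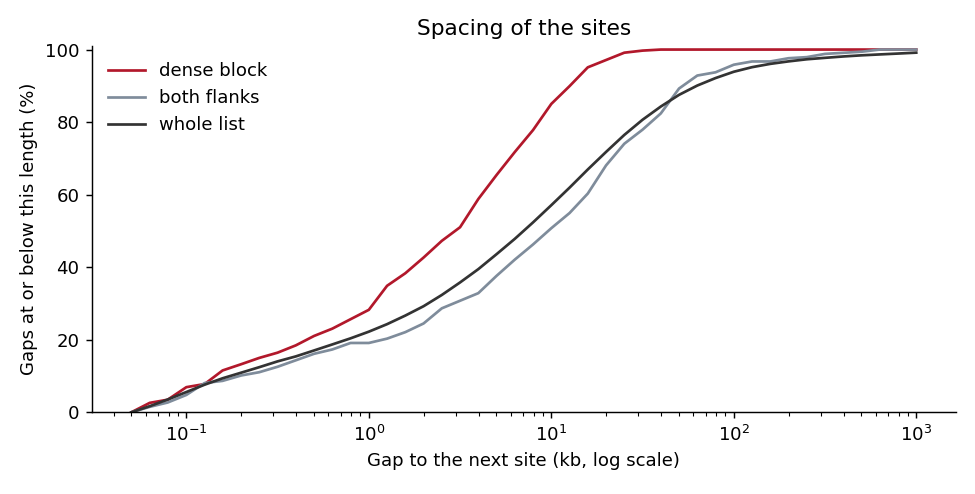
Cumulative share (%) of gaps up to a given length (kb, log scale) in the dense block (347 gaps), both flanks (335) and the whole list. The curves lie close together below 0.5 kb and part above it, with medians of 3.02 kb in the block, 9.62 kb in the flanks and 7.05 kb in the list.

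Close neighbours came in small groups. When sites at most 1 kb apart were joined, the 367 sites became 267 regions, of which 189 (70.8%) were single sites, 78 had more than 1, and 7 had 4, the most in the stretch. In the list 77.9% of the joined regions were single sites, and the largest had 14. The widest of the 4-site regions spanned 6.09 kb (79754672 to 79760756) and had 2 wide sites, and the next spanned 6.06 kb (79446138 to 79452192). Among narrow sites of the stretch, 51.0% had a neighbour within 500 bp (40.7 to 61.3%), and among the others 33.1% (27.5 to 39.1%). The same contrast was present in the list, with 40.6 and 27.4%, and in the pooled flanks, with 45.1 and 23.4%. In the left flank alone the shares were 53.3 and 26.5%. In the right flank they were 22.2% (8.62 to 42.3%) and 18.2% (10.8 to 27.8%), and these intervals overlap.

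Joined across gaps of up to 12500 bp, the sites formed 13 clusters of 10 or more, with 251 sites (68.4% of the stretch). None was among the 10 longest of the list. Their median was 18 sites in 67.3 kb with 20.2% of the bases covered, and the 656 clusters of the list had medians of 13 sites, 51.7 kb and 21.7%. The longest, from 79370837 to 79503098, spanned 132 kb and had 28 sites. Another of 28 sites spanned 131 kb (80912658 to 81043510), and the one with the most sites, 32, spanned 129 kb (79744390 to 79873187). A pair with 24 sites each covered 115 kb (80616126 to 80731296) and 90.1 kb (80781932 to 80872062). By length these 5 ranked between 17 and 68 of 656. The most densely covered was a cluster of 18 sites in 47.4 kb (80118681 to 80166087), with 5 wide sites and 42.9% of its bases in sites. It ends at the longest gap of the block. At a joining distance of 25 kb the block fell into 4 clusters, and the largest held 168 sites in 908 kb (80204473 to 81112390), the most sites of all 1270 clusters of the list at that distance. At 5 kb only 2 clusters of 10 sites each were left.

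After the block, the remaining 0.9 Mb of the stretch held 11 sites, 12.2 per Mb (6.10 to 21.9), and 11 of its 18 steps were empty. The first 2 of these sites trail the block, and the other 9 lay between 81459902 and 81817611. None of the 11 was wide, and their median width was 1057 bp (360 to 1273). For 0 wide sites of 11 the exact binomial upper limit is 28.5%.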

How the data were processed

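Accessible chromatin was measured by DNaseI sequencing in 1 library of lymphoma T6. The deposited list has 3 columns and no header: a chromosome name and the first and last position of a site, in base pairs. Per the submitters' processing notes, the authors used BWA 0.6.2 and SAMtools on genome build mm9. Nothing read here names the peak caller, its threshold or a role of the input. Depth is unknown. Sites were assigned to windows by their start, and printed coordinates count from 1. Steps were 50 kb. Gaps run from the end of a site to the start of the next. Intervals are exact Poisson, exact (Clopper-Pearson) binomial or from order statistics. The members, gene lists and limits were chosen with earlier results of these data known. The regions named are the 10 widest sites, the 5 fullest and the emptiest steps, the 5 longest clusters, the longest gaps and the sites at the limits. Placement at genes, marker genes, GC content and motifs need mm9 annotation or sequence and were not run. Python 3.11.15, numpy 2.4.6, pandas 2.3.3 and scipy 1.17.1 were used. The edge fit was run on counts simulated with the rates and edges found here, which checks the code and not the edges. Recovery was required only for simulated counts without extra spread.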

Additional observations from a re-analysis of the deposited data

How the results depend on the processing

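Of 23 recomputed values, 16 stayed within counting error, within 1.5 times for a count or within 50 kb for an edge, 7 moved by more, and none reversed. Both edges stayed within 20 kb with steps of 20 or 100 kb, with only sites of at least the median width, and after joining across 1 kb. The ratio of the stretch to its flanks ran from 3.26 with joined sites to 4.19 by covered bases. Taking sites at or above the median width left 212 sites with a median gap of 5.72 kb. Measured between midpoints the median spacing was 4.09 kb. With limits of 350 and 2000 bp, narrow sites were 21.5% and wide sites 6.81% of the stretch, against 24.6 and 4.27% of the list and 22.8 and 2.97% of the flanks. The intervals for these wide shares, 4.46 to 9.89% in the stretch and 1.43 to 5.39% in the flanks, overlap. Joining across 5 kb gave 2 clusters and across 25 kb 4. Fewer sites, other limits and other distances set these changes by construction. No paired analysis was possible because there was 1 library. Sites at gene starts were not run. Signal thresholds could not be varied without counts per site.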

Other observations

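Beyond the dense block, 5 of the sites in the sparse remainder stood at similar distances. From the site at 81467734 to that at 81630736, 4 gaps in a row measured 42.3, 33.9, 43.6 and 39.2 kb, and the 3 sites in the middle were 1273, 1149 and 1151 bp wide. In the block no gap was as long as 39 kb. This pattern was noticed in the data and rests on 5 sites, and the genes, repeats and input reads there were not analysed.

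The left flank was itself uneven. Its first 4 Mb held 213 sites, 53.3 per Mb (46.3 to 60.9), with 25% of the 50-kb steps empty, and its last Mb held 9, with 75% empty. Of those 9 sites, 4 lay in its last 50-kb step, at the start of the shoulder of the block.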
